A study of Arabidopsis thaliana with 36 samples.

Results

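Introns of 100 to under 300 bases were the subject: every region that the authors' 12 splicing tables list as an intron bin and that spans 100 to under 300 bases from its first to its last base. There were 6974 such introns among the 16974 introns of any length called in at least 1 of the 12 comparisons. They lay in 4395 of the 8102 loci with a called intron, all on chromosomes 1 to 5, and 6840 of them (98.1%) had the exact ends of an intron in the RefSeq annotation of TAIR10.1. Of the others, 6291 called introns were shorter than 100 bases and 3709 had 300 bases or more. Among the called introns, length alone chose the members. Each had first been called by the authors in at least 1 comparison, so shares and sizes among members are those of selected introns. The count of members in 1, 2, 3 and 4 comparisons was 3767, 1821, 733 and 511, and 98, 39 and 5 introns were called in 5, 6 and 7 comparisons.

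An intron is removed from a pre-mRNA by the spliceosome, which recognises a GU at its start, a branch point, and a run of pyrimidines with an AG at its end. The 3′ splice site is bound by the U2 auxiliary factor before the U2 particle joins. Intron retention is the most common form of alternative splicing in plants, and a retained intron in the coding part of a transcript usually brings a stop codon into the reading frame. SWAP1, SFPS and RRC1 are splicing regulators that act with the red light receptor phytochrome B in young seedlings. In the reference annotation 52863 of 136443 introns measured 100 to under 300 bases, with a median of 138 bases. Of those that interrupt a coding sequence, 93.5% held a stop codon in the reading frame that enters them.

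The seedlings were Arabidopsis thaliana of the Col-0 wild type, the single mutant swap1-1, the double mutants swap1-1sfps-2, swap1-1rrc1-3 and sfps-2rrc1-3, and the triple mutant swap1-1sfps-2rrc1-3. Each of the 6 genotypes was sampled in darkness and in red light, as 12 groups of 3 libraries made from total RNA without ribosomal RNA. All seedlings had been given 3 h of white light to start germination and were 4 days old and grown in darkness. They then stayed dark or were placed for 3 h in continuous red light of 7 µmol per square metre and second. The growth protocol names the wild type and swap1-1 alone, and what the mutant alleles change in the genes is not given in the sources used here. Whether the 3 libraries of each group stem from seedlings grown separately is not stated in the labels, so the authors' false discovery rates (FDR) measure only the spread between these libraries. Whole seedlings were used, in which fewer cells of a type and less RNA per cell cannot be told apart. None of the 13 annotated introns of this length in the 8 seed storage genes, and none of the 3 in the 4 root hair genes, was called in any comparison. Over all annotated introns of this length 12.9% were, so lists this small say little about cell types.

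For each bin and comparison the tables give 1 log2 fold change and 1 FDR over all libraries of the groups. Values of single libraries, and so the depth behind a call, are unknown. A bin is a stretch of a gene whose coverage is set against that of the gene. Every comparison below is written as red light over darkness, mutant over wild type or triple over double mutant. A positive value means more intron reads, relative to the gene, in the red light, mutant or triple mutant group, and is called higher retention. The direction was checked in the 4 tables of wild type and swap1-1. The 8 tables with the triple mutant had no check of their own, and were read in the same way because their headers have the same form. The table headers name a bin fold of 1.5 and an FDR of 0.05 in the 4 tables of wild type and swap1-1, and of 0.03 in the 8 tables with the triple mutant. Up to 54 called members of a comparison nevertheless lay under that fold. Of the members, 1220 (17.5%) lay where a second locus overlaps. Whether the counting used strand is not given in the sources used here, so for these the reads of the loci cannot be told apart.

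The introns below carry the main patterns. They lie in coding sequence and are shown because they were called in the mutated gene RRC1, in a clock gene and a light signalling gene, or in 6 of the 12 comparisons. The sequences are from RefSeq TAIR10.1, 5′ to 3′ on the strand of the gene, with T for U, and the coordinates give the intron. Capitals mark the last base of the exon before, the first 6 and the last 3 bases of the intron, and the first base of the exon after it.
RRC1 intron 16, chr5:8634509-8634669, - strand: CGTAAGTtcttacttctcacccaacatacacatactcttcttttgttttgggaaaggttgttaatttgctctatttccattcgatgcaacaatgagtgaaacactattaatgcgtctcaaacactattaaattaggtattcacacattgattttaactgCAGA
RRC1 intron 2, chr5:8639488-8639662, - strand: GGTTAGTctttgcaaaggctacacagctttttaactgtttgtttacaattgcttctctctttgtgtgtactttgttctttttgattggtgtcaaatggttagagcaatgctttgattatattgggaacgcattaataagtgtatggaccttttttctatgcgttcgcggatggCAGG
LHY intron 4, chr1:36686-36809, - strand: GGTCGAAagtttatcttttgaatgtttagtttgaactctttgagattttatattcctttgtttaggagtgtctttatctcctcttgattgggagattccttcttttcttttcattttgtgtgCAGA
DDB1A intron 6, chr4:2747976-2748110, + strand: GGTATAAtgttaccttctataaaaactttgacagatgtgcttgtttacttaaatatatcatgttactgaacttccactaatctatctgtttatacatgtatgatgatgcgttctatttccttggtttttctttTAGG
CAT2 intron 13, chr1:21464342-21464625, - strand: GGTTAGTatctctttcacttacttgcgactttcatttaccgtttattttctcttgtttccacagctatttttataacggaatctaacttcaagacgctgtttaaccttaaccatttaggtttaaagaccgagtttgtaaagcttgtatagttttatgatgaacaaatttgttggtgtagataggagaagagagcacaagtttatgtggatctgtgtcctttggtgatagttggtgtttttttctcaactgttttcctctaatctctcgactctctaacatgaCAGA
PPDK intron 9, chr4:8866986-8867228, - strand: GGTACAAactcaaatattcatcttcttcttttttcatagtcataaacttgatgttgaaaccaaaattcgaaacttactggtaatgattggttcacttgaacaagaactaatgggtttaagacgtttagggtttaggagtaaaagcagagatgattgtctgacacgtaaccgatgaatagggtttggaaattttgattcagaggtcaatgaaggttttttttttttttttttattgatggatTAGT
LAC2 intron 5, chr2:12525320-12525473, - strand: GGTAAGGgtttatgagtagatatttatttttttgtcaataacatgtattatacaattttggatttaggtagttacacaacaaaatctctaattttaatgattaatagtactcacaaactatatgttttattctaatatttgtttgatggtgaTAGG

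Counted from the first base of the intron, the first stop codon in the reading frame began at base 96 in RRC1 intron 16, base 3 in RRC1 intron 2, base 18 in LHY intron 4 and base 4 in DDB1A intron 6. In the other genes it began at base 83 in CAT2, base 172 in PPDK and base 12 in LAC2. LAC2 intron 5 and DDB1A intron 6 end in TAG followed by an exonic G, and PPDK intron 9 ends in TAG followed by a T. The other 4 end in CAG.

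Members whose retention fell in 1 setting and rose in another were often the leading intron of the 5′ untranslated region (5′ UTR), as in EIF3C, bHLH104, PTB3 and AT5G45410. GI intron 1 is shown beside them, though its opposite signs come from comparisons that all share the wild-type libraries in red light. For all of these the last 29 intron bases and the first exon base are given, in the same notation.
EIF3C intron 1, chr3:20836875-20837064, - strand: taatttcgttcctctgattcactattCAGA
bHLH104 intron 1, chr4:8300133-8300298, + strand: aaagtgttgttgtttttttcgcatttCAGG
PTB3 intron 1, chr1:16278194-16278454, - strand: ttagtttaatgggtttgtctttgtttCAGG
AT5G45410 intron 1, chr5:18403600-18403741, - strand: tctataacaaaatagatcttgcgatgCAGA
GI intron 1, chr1:8061982-8062190, + strand: gattttgttcttctgaattgttgttaCAGG

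All of these 5 ends read CAG, and the intron behind them held between 43.0% T (AT5G45410) and 51.7% T (GI). The median over all annotated introns of this length was 40.7%.

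Members that were lower in the mutants over wild type ended in CAG less often than those that were higher. CAG was still their most frequent end, at 47.4% to 55.7%. The ends of 4 of them are shown, chosen after their values were seen, for the contrast with the CAG ends above. They do not stand for the lower members as a whole and add nothing to the shares given further on.
LUP2 intron 1, chr1:29696503-29696707, + strand: tatatatatgtacacgtaactatacaTAGC
KEA3 intron 6, chr4:2454639-2454749, + strand: attcttattgacaattttgaaatgtaTAGC
AGL20 intron 5, chr2:18808365-18808467, - strand: attataactcaatttctcatctctttTAGA
TOC1 intron 2, chr5:24676152-24676287, + strand: gactaatcttataatattctcaatttAAGT

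In the swap1-1 mutant the called introns mostly had higher retention than in the wild type, in darkness and, with more calls, in red light. In darkness 1594 members were called in swap1-1 against wild type, 1353 higher and 241 lower. Over all annotated introns of any length, 2.39% were called in this comparison, 2.05% higher and 0.345% lower, and over those of 100 to under 300 bases 2.94% were called. In red light 3103 members were called, 2938 higher and 165 lower, against a background of 5.58% of all annotated introns called, 5.32% higher and 0.263% lower. The share of annotated introns of 100 to under 300 bases called there was 5.73%, close to the background. The median log2 fold change of the called members was 0.74 in darkness and 0.77 in red light, where shorter introns had 0.76 and 0.78 and longer ones 0.69 and 0.80. Nearly all calls lay above the fold of 1.5, so these medians depend on that cut and their likeness says little about effect size.

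The triple mutant against wild type gave the same picture with more calls. In darkness 2521 members were called, 2165 higher and 356 lower, where the background over all annotated introns was 3.74%, with 3.22% higher and 0.52% lower. In red light 3521 were called, 3275 higher and 246 lower, where the background was 6.19%, with 5.84% higher and 0.358% lower. Among annotated introns of 100 to under 300 bases the shares called were 4.67% and 6.51%. These comparisons use the same wild-type libraries as those of swap1-1, so their likeness is no separate evidence.

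**Figure D1:**
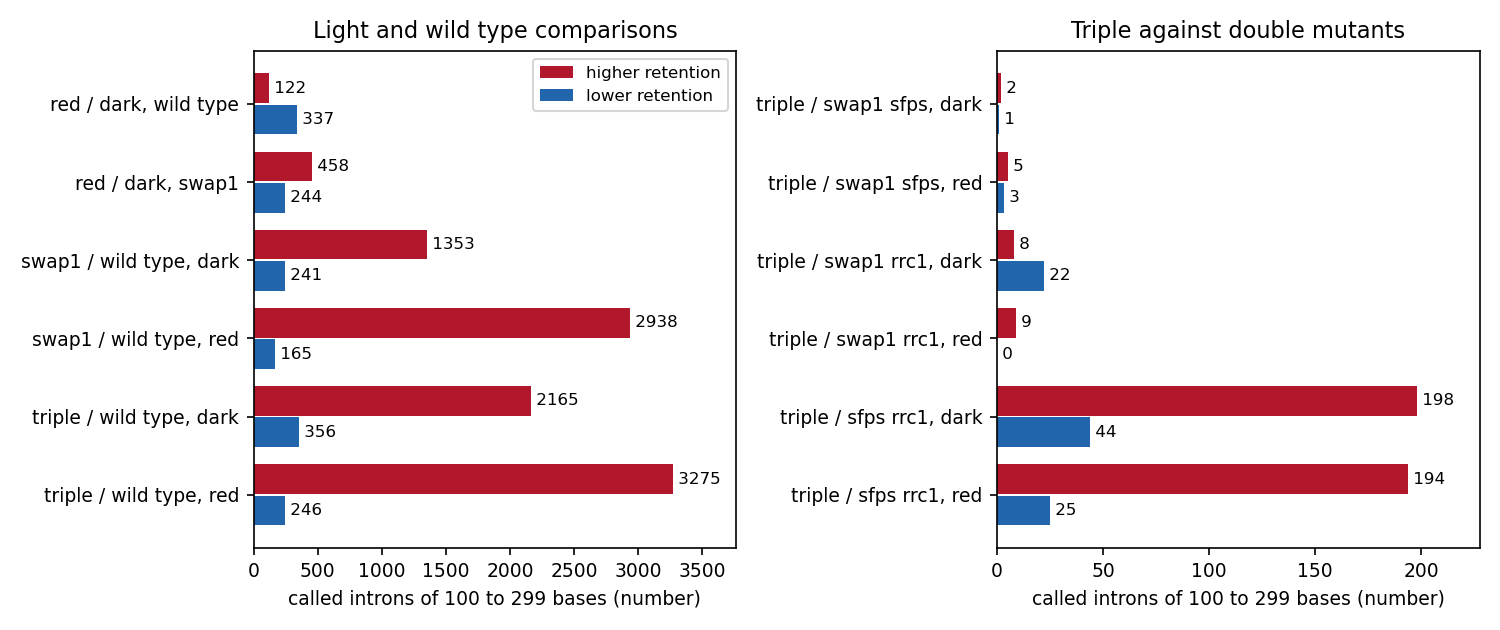
Number of called introns of 100 to under 300 bases with higher (red bars) or lower (blue bars) retention, for each of the 12 comparisons, on separate scales for the 6 light and wild-type comparisons (left) and the 6 comparisons of the triple mutant with a double mutant (right). The wild type in red light over darkness has more lower than higher introns (337 and 122), and the mutants over wild type have more higher ones, up to 3275 in the triple mutant in red light.

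Red light had opposite leanings in the genotypes. In the wild type 459 members were called between red light and darkness, 337 with lower and 122 with higher retention in red light, beside a background of 0.982% of all annotated introns called, 0.714% lower and 0.268% higher. In swap1-1 702 were called, 458 higher and 244 lower, beside 1.58% called in the background, 1.09% higher and 0.49% lower. Members were called at 0.832% and 1.27% of the annotated introns of their length. Higher retention made up 26.6% of the members called in the wild type, between 49.3% for introns under 100 bases and 5.22% for those of 300 bases or more. In swap1-1 the order was the opposite, with 51.8% for the short introns, 65.2% for the members and 94.0% for the long ones.

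These light comparisons share no library, and 130 members were called in both, which is 28.3% of those called in the wild type and 18.5% of those in swap1-1. Of these, 42 were higher in red light in both genotypes and 42 lower in both. The other 46 were lower in red light in the wild type and higher in swap1-1, and no member showed the reverse. The difference between the light effects of the genotypes was not tested, because the tables hold no standard errors for bins. In the 46 introns, as read from the authors' deposited tables, the direction differed with an FDR of at most 0.05 on each side. Of the 40 with annotated ends, 22 (55.0%) lay in a 5′ UTR, while 4 of the 40 members with annotated ends that fell in both genotypes did so. All annotated introns of this length lay in a 5′ UTR in 7.37% of cases.

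**Figure D2:**
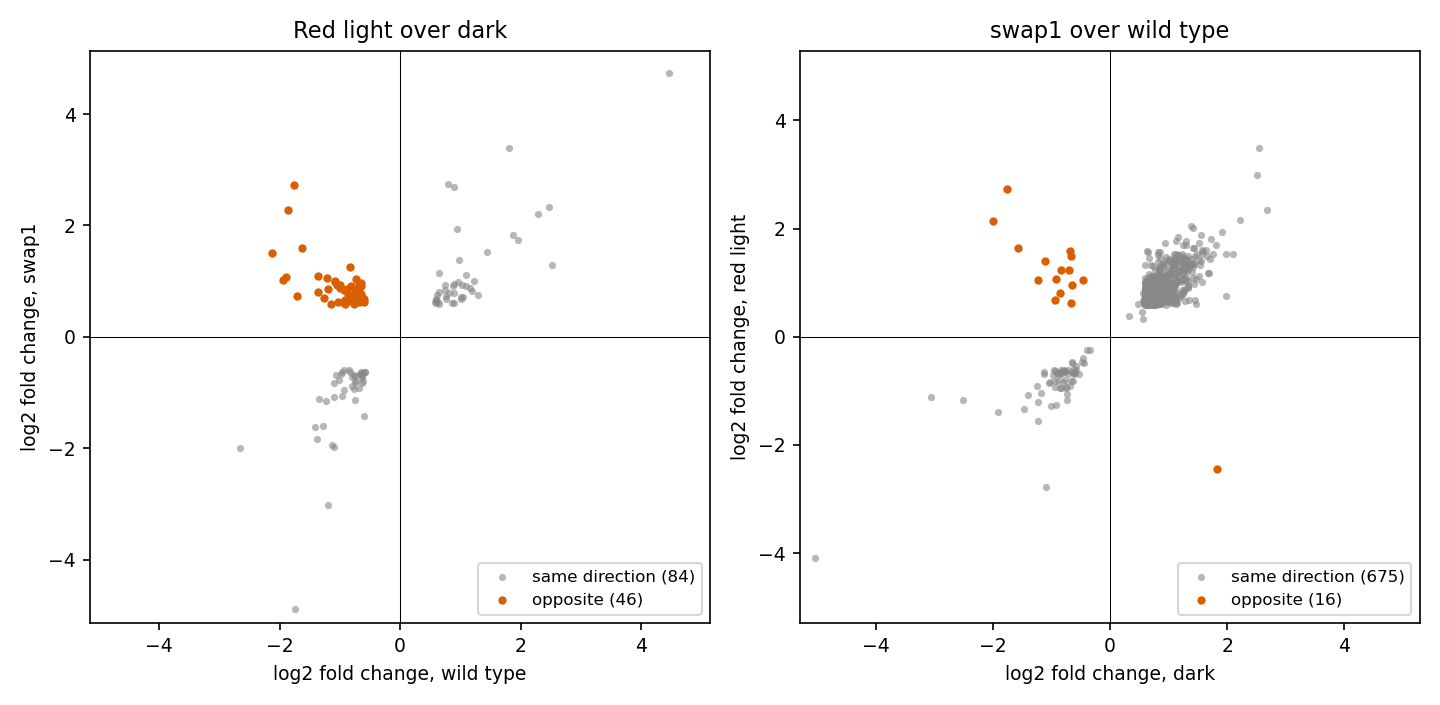
Log2 fold changes of the introns of 100 to under 300 bases called in both of a pair of comparisons that share no library, 1 point per intron. Left, red light over darkness in wild type (x) and in swap1-1 (y), with 84 points of the same and 46 of opposite direction, all 46 in the upper left. Right, swap1-1 over wild type in darkness (x) and in red light (y), with 675 of the same and 16 of opposite direction. The left and right panels draw on the same libraries.

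EIF3C, a subunit of translation initiation factor 3, showed the change of direction in its intron 1 of 190 bases. Its log2 fold change in the authors' deposited tables was -1.35 for red light in the wild type (FDR 5.076e-15) and 0.81 for red light in swap1-1 (FDR 7.498e-07). Against wild type, swap1-1 was lower in darkness, at -0.66, and higher in red light, at 1.5, and the triple mutant was at -0.65 and 1.5. Intron 1 of bHLH104 (166 bases), a transcription factor of the iron deficiency response, stood at -1.05 in the wild type (FDR 8.925e-10) and 0.93 in swap1-1 (FDR 5.037e-13) in the authors' deposited tables. For swap1-1 over wild type the tables give -0.92 in darkness and 1.07 in red light. Both introns were among the 5 members called in 7 of the 12 comparisons.

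Intron 1 of PTB3 (261 bases), which encodes a polypyrimidine tract-binding protein and regulator of splicing, was at -0.65 for red light in the wild type (FDR 0.0005605) and 0.77 in swap1-1 (FDR 9.659e-12) in the authors' deposited tables. It was 1.19 for swap1-1 over wild type in red light and was not called for swap1-1 in darkness. The largest such values belonged to AT5G45410, which RefSeq describes as a zinc finger B-box protein. In the authors' deposited tables its intron 1 of 142 bases had -1.77 in the wild type (FDR 0.009153) and 2.73 in swap1-1 (FDR 6.612e-56). In darkness it stood at -1.76 for swap1-1 over wild type, and in red light at 2.73. These 4 genes each carry the intron in the 5′ UTR.

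The swap1-1 effect itself was compared between darkness and red light, in comparisons that again share no library with each other. Their libraries are, however, the same as those of the light comparisons in wild type and swap1-1 above. The opposite directions in swap1-1 given here, and their 5′ UTR share, are therefore no separate evidence from those of the light comparisons. Called in both were 691 members, 43.4% of those called in darkness and 22.3% of those in red light. The direction was the same for 675 of them, 613 higher and 62 lower. Another 15 were lower in darkness and higher in red light, and 1 was higher in darkness and lower in red light. Of the 14 with annotated ends among the 15, 10 (71.4%) lay in a 5′ UTR, against 30 of the 598 annotated members that were higher in both (5.02%). For the triple mutant over wild type 1094 members were called in both lights, 1074 in the same direction, with 977 higher and 97 lower, and the other 20 were lower in darkness and higher in red light.

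CAT2, a transporter of cationic amino acids, kept 1 direction. Its intron 13 of 284 bases, the last of the gene, had log2 fold changes of 1.41 in darkness and 1.43 in red light for swap1-1 over wild type in the authors' deposited tables (FDR 1.96e-73 and 6.73e-79). In the triple mutant over wild type they were 1.78 and 1.63, and in the triple mutant over sfps-2rrc1-3 they were 1.33 and 1.13. Intron 5 of LAC2, a laccase of the family that oxidises lignin monomers, reached 2.67 and 2.34 for swap1-1 and 3.03 and 2.94 for the triple mutant over wild type, in darkness and red light, in the same authors' deposited tables. Its values for the triple mutant over sfps-2rrc1-3 were 1.36 and 1.59. The same 6 comparisons listed intron 4 of the alanyl-tRNA synthetase gene ALATS (1.91 and 1.94 for swap1-1) and intron 9 of PPDK, pyruvate orthophosphate dikinase (1.56 and 1.41). Neither the light comparisons nor the comparisons with the other double mutants called any of these 4 introns.

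Lower retention in the mutants was the less frequent direction. Intron 1 of LUP2, a lupeol synthase gene of triterpene metabolism, had -5.04 in darkness (FDR 2.049e-10) and -4.09 in red light (FDR 2.546e-05) for swap1-1 over wild type in the authors' deposited tables. The triple mutant was at -2.11 and -1.57. KEA3, a potassium antiporter of the chloroplast, had -2.51 and -1.17 in swap1-1 for its intron 6 of 111 bases, and -1.59 and -1.09 in the triple mutant, in the authors' deposited tables. Intron 5 of AGL20, the floral integrator also known as SOC1, was called in red light only, at -2.83 for swap1-1 and -2.0 for the triple mutant over wild type.

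The other members called in 7 comparisons, beside PTB3, also moved both ways. In AT5G53050, an alpha/beta hydrolase gene, a 107-base intron of the 3′ UTR was higher in red light in the wild type (0.98) and swap1-1 (1.37), and lower in the mutants, from -0.76 for swap1-1 in darkness to -1.88 for the triple mutant in red light (authors' deposited tables). In AT2G34315, annotated as an avirulence induced family gene, a 123-base region had -3.05 and -1.12 for swap1-1 over wild type in darkness and red light, and 0.79 and 2.75 for red light in the wild type and swap1-1. That region does not have the ends of an annotated intron.

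**Figure D3:**
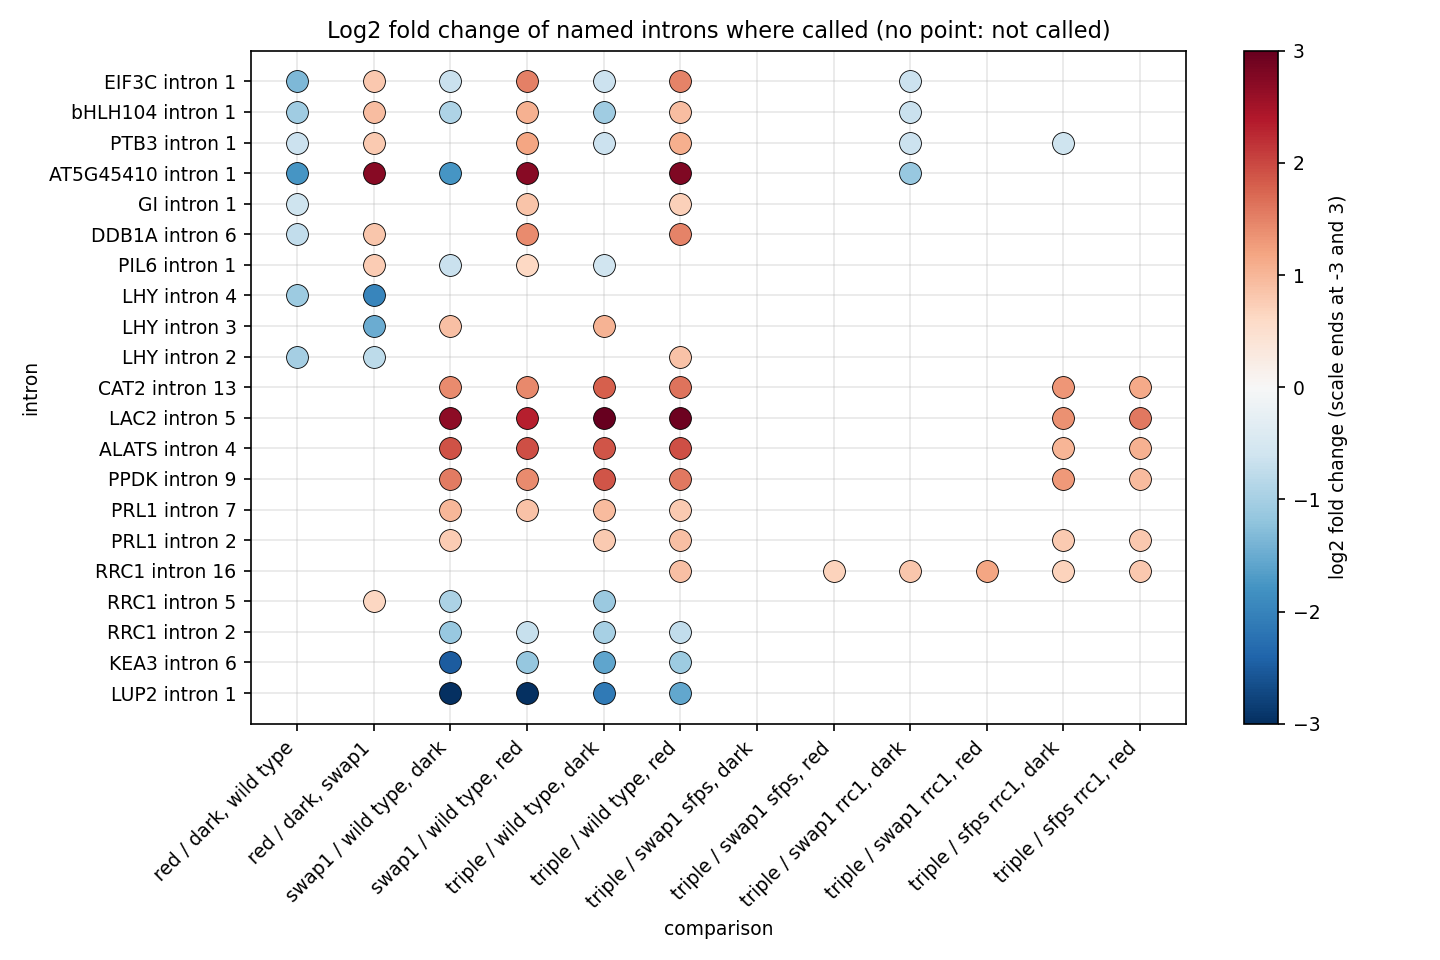
Log2 fold change of 21 named introns (rows) in the 12 comparisons (columns), coloured from blue (lower) to red (higher), with a point only where the authors called the intron and colours ending at -3 and 3. The upper rows, such as EIF3C intron 1 (-1.35 and 0.81 for red light in wild type and swap1-1), change colour between comparisons, CAT2 and LAC2 are red wherever called, and KEA3 and LUP2 are blue.

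The mutated genes themselves held 4 called members (26.7%) of the 15 annotated introns of this length in 2 of the 3 genes. Of all annotated introns of this length 12.9% were called in some comparison, and so few introns say little. In SWAP1 (AT4G31200), intron 3 of 114 bases was called in 1 comparison, at -1.75 for swap1-1 over wild type in darkness (FDR 0.02109, authors' deposited table). In RRC1, which encodes a protein with an RNA recognition motif, introns 2 and 5 were lower in swap1-1 in darkness, at -1.14 and -0.94, and in the triple mutant in darkness, at -1.01 and -1.11 (authors' deposited tables). RRC1 intron 2 was also lower in red light, at -0.69 in swap1-1 and -0.74 in the triple mutant. The last intron of RRC1, number 16, was higher in the triple mutant over wild type in red light (0.91) and over the double mutants: 0.69 over swap1-1sfps-2 in red light, 0.82 and 1.18 over swap1-1rrc1-3, and 0.70 and 0.81 over sfps-2rrc1-3, in darkness and red light in that order (authors' deposited tables). The groups on either side of the last 4 values all carry rrc1-3. SFPS, which has no annotated intron of this length, held no member.

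Against the double mutants the triple mutant showed few calls. Over swap1-1sfps-2, 3 members were called in darkness (2 higher, 1 lower; background 0.0132%, 0.00879% higher and 0.0044% lower) and 8 in red light (5 higher, 3 lower; background 0.0169%, 0.0132% higher and 0.00366% lower), with none in both. Over swap1-1rrc1-3, 30 were called in darkness, 8 higher and 22 lower, beside 0.0528% of all annotated introns, 0.0169% higher and 0.0359% lower. In red light 9 were called over swap1-1rrc1-3, all higher, beside 0.0183%, with 0.0161% higher and 0.0022% lower. The 1 member shared by these lights was RRC1 intron 16. Whether darkness and red light differ in this was not tested.

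Over sfps-2rrc1-3, the step that adds swap1-1, the triple mutant had 242 called members in darkness, 198 higher and 44 lower, where the background was 0.355%, with 0.295% higher and 0.0601% lower. In red light 219 were called, 194 higher and 25 lower, where it was 0.344%, with 0.294% higher and 0.0498% lower. The 62 members called in both lights all had the same direction, 55 higher and 7 lower. This step can be set beside swap1-1 over wild type without a shared library. In darkness 95 members were called in both, which is 39.3% of those of the step from sfps-2rrc1-3 and 5.96% of those of swap1-1 over wild type, and 93 had the same direction. In red light the count was 92, or 42.0% and 2.96%, and 90 had the same direction.

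Some of the few calls against double mutants came with changes along the whole gene. In PWP2, whose yeast counterpart acts in ribosome assembly, intron 1 of 100 bases was at 1.87 in the triple mutant over swap1-1sfps-2 in darkness, and 7 exon bins of the gene lay between 1.53 and 1.83 (authors' deposited table). In AT1G15470, 3 members were between 1.32 and 1.52 over swap1-1rrc1-3 in darkness, beside 6 exon bins between 1.22 and 1.37 in the authors' deposited table. Across the 6 large comparisons a called exon bin in the same gene accompanied between 7.97% of the members (swap1-1 over wild type in darkness) and 13.9% (in red light). In that red light comparison the median of those exon bins had the direction of the intron for 287 members and the other direction for 143. The part of such exon bins in the intron values was not tested.

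The ends of the members differed by direction. Of members with annotated ends that were higher in swap1-1, 70.7% in darkness and 72.4% in red light ended in CAG, and in the triple mutant 70.7% and 71.1% did. Among members that were lower, the shares were 55.7% and 48.4% in swap1-1, and 47.4% and 53.6% in the triple mutant. All annotated introns of this length ended in CAG in 62.7% of cases, and in 65.7% when only loci with a called region were counted. Ends in AAG made up between 11.1% and 13.8% of the lower introns and between 3.84% and 4.46% of the higher ones.

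The first base of the next exon differed as well in these comparisons with wild type. It was G after 50.7% and 53.2% of the introns that were higher in swap1-1, in darkness and red light, and after 33.8% and 37.1% of those that were lower. For the triple mutant the shares were 54.1% and 54.2% after higher introns and 33.5% and 33.2% after lower ones, where 50.1% of all annotated introns of this length were followed by G. The 4 comparisons share libraries and introns, so they are 4 readings and not 4 separate observations. The triple mutant over sfps-2rrc1-3 shares no library with swap1-1 over wild type, and there the contrast in G was not seen. In darkness G followed 44.8% of 194 higher and 45.2% of 42 lower introns, and in red light 48.4% of 190 and 45.8% of 24. Ends in CAG made up 68.6% of the higher and 52.4% of the lower introns there in darkness, and 63.2% and 54.2% in red light. The same contrast stood in other lengths: introns under 100 bases ended in CAG in 68.6% to 70.6% of the higher and 44.3% to 51.7% of the lower cases, so it is not particular to 100 to under 300 bases. The share of GTAAGT at the intron start was between 9.42% and 9.82% of higher and between 7.55% and 13.6% of lower members, with 9.01% in the annotation.

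**Figure D4:**
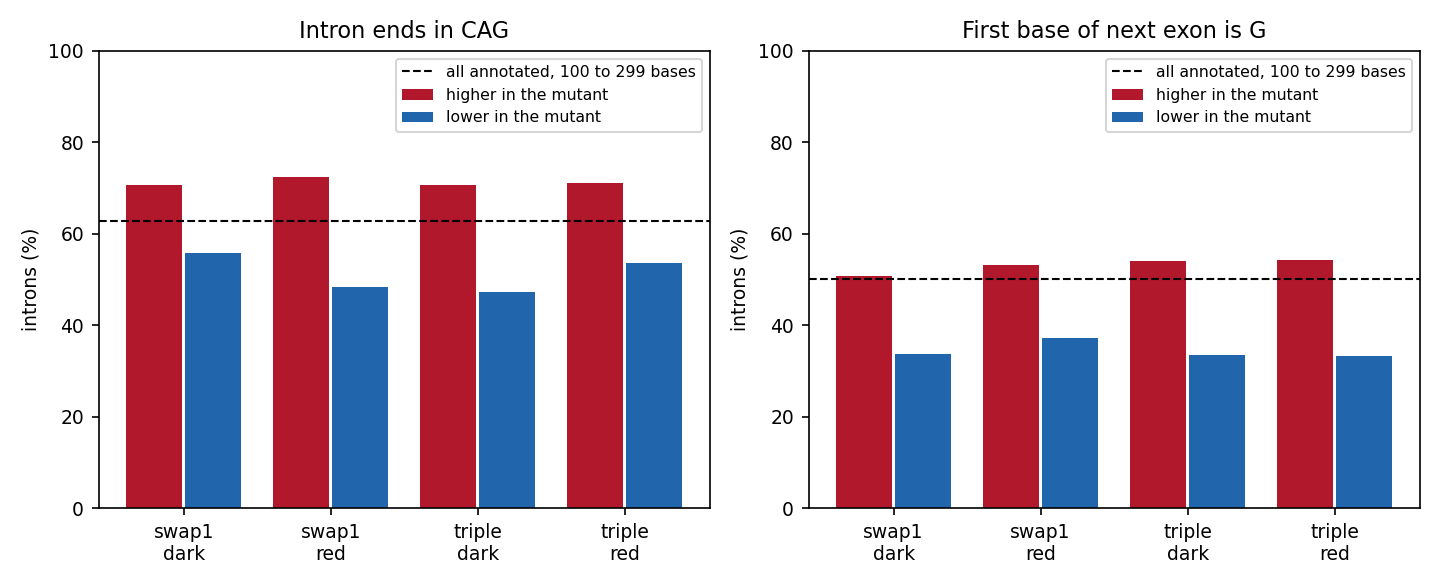
Share of called introns of 100 to under 300 bases that end in CAG (left) and that are followed by an exonic G (right), for introns higher (red) or lower (blue) in swap1-1 or the triple mutant over wild type, in darkness and red light. The dashed line is the share in all annotated introns of this length (62.7% and 50.1%), and in all 4 comparisons the red bar is above the blue one.

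Within 100 to under 300 bases the calls changed with length. In the wild type the share of called members that were higher in red light was 37.6% at 100 to under 150 bases, 19.8% at 150 to under 200, 14.9% at 200 to under 250 and 11.8% at 250 to under 300. In swap1-1 it was 62.7%, 57.1%, 65.2% and 84.1%. The share of annotated introns called in swap1-1 over wild type in red light was 4.21%, 6.17%, 7.68% and 10.9% over the same bins, and 5.00%, 7.21%, 8.55% and 10.95% for the triple mutant. The tables give no reads per bin, so the part of read number in this trend was not tested. Across the edges of the chosen range, for the triple mutant over wild type in red light, 90.4% of 394 called introns of 95 to 99 bases and 90.1% of 252 of 100 to 104 bases were higher. At the upper edge it was 98.4% of 63 introns of 295 to under 300 bases and 100% of 45 of 300 to 304 bases.

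**Figure D5:**
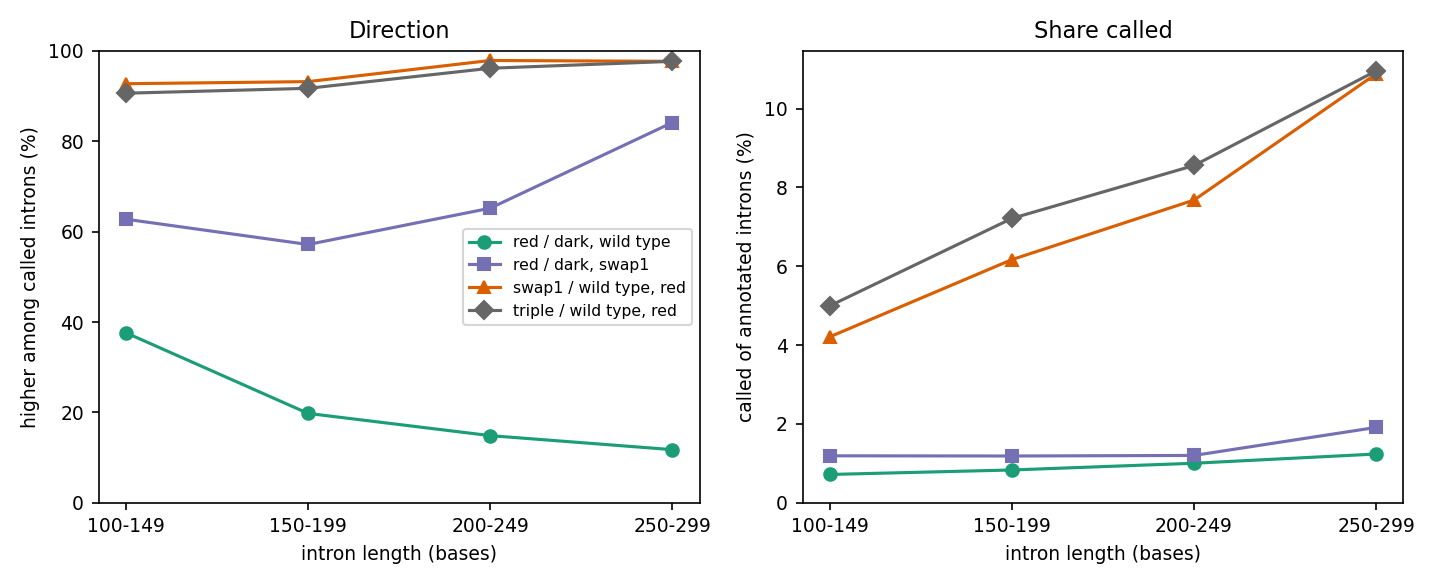
Share of called introns with higher retention (left) and share of annotated introns called (right), by intron length in 4 bins, for red light over darkness in wild type and swap1-1 and for swap1-1 and the triple mutant over wild type in red light. In the wild type the share with higher retention in red light falls from 37.6% to 11.8%, and the share of annotated introns called in the mutants over wild type rises to 10.9% and 10.95%.

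Position in the gene went with direction in the light comparisons. Of the members with annotated ends that were lower in red light in the wild type, 82 of 322 (25.5%) lay in a 5′ UTR, against 4 of 118 (3.39%) of those that were higher. In swap1-1 it was 81 of 430 (18.8%) of those higher in red light and 5 of 239 (2.09%) of those lower. Among members lower in red light, transcripts of the host gene were more often called higher in red light than lower. In the wild type 302 host loci had such an intron, of which 79 (26.2%) had a transcript called higher and 45 (14.9%) one called lower. In swap1-1 it was 97 (45.5%) and 25 (11.7%) of 213 loci. Introns of other lengths that were lower showed the same, with 163 and 70 of 596 loci in the wild type and 143 and 40 of 322 in swap1-1, so it is not particular to the members. For members higher in red light the counts lay closer together, at 22 and 20 of 105 loci in the wild type and 92 and 75 of 411 in swap1-1. Over all 24197 annotated loci with an intron, 11.6% had a transcript called higher and 7.09% one called lower in the wild type, and 13.5% and 9.27% in swap1-1. More transcripts called higher than lower was thus also the state of all loci. Host transcripts and introns were measured in the same libraries, and the part of transcript level in the intron values was not tested.

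Several members often lay in 1 gene. In the triple mutant over wild type in red light, 619 loci held at least 2 called members, of which 546 had all of them higher, 9 all lower and 64 a mix. AT4G17140 had 17 of its 28 annotated introns of this length called there, all higher. For swap1-1 over wild type in red light it was 493 loci, with 459 all higher, 3 all lower and 31 mixed. Of all called members, 93.0% were higher in the triple mutant and 94.7% in swap1-1 in these comparisons. Loci with all members higher are therefore frequent in any case, and whether members of a gene share a direction beyond this was not tested. Introns of 1 gene share their transcripts and are not separate observations.

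In splicing factor genes, as among all called introns, most calls in the mutants were of higher retention. In swap1-1 over wild type 84.9% of all called members were higher in darkness and 94.7% in red light. Of the 72 annotated introns of this length in 20 genes for SR proteins, which bind exons and recruit the spliceosome, 8 (11.1%) were called in swap1-1 over wild type in red light, 7 higher and 1 lower, where 5.73% of all annotated introns of this length were called. Their median was 0.75, while the median over all called members was 0.77. None was called for swap1-1 in darkness. Introns 6 of SR30 and 5 of RSZ21 were higher in red light, at 0.76 and 0.80, and intron 1 of SCL28 was at -1.54 (authors' deposited table). Of 139 introns in 33 other splicing factor genes, 9 (6.47%) were called in swap1-1 over wild type in darkness and 17 (12.2%) in red light, all higher, beside 2.94% and 5.73% of all annotated introns of this length. The medians were 0.74 and 0.71. These counts were not tested against other genes. PRL1, a core protein of the MOS4-associated complex, had 4 called introns, with intron 7 at 1.00 and 0.89 for swap1-1 in darkness and red light in the authors' deposited tables. AT1G60900, which encodes a large subunit of the U2 auxiliary factor, had intron 11 at 0.74 and 0.79 in the same comparisons.

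The 26 clock genes had 68 annotated introns of this length, of which 10 (14.7%) in 8 genes were called in some comparison, close to the 12.9% of all annotated introns of this length. For red light in the wild type 4 (5.88%) were called, beside 0.832% of all annotated introns of this length, all lower, with a median of -0.84, where the median over all called members was -0.72. They lay in 3 genes, with LHY introns 2 and 4 among them, so the share rests on few genes. LHY, a morning transcription factor of the central loop, had 3 members. In the authors' deposited tables its intron 4 was at -1.09 in the wild type and -1.98 in swap1-1 for red light over darkness. Its intron 2, in the 5′ UTR, was at -1.02 and -0.78 in the same order, and intron 3 was called in swap1-1, at -1.48. GI, a clock protein that also controls flowering, had intron 1 at -0.62 for red light in the wild type and at 0.85 for swap1-1 and 0.70 for the triple mutant over wild type in red light (authors' deposited tables). These GI values share the wild-type libraries in red light, and the intron was not called for light in swap1-1. TOC1, an evening repressor of the clock, had intron 2 at -0.62 for swap1-1 over wild type in darkness.

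The 39 light signalling genes had 106 introns of this length, and 14 (13.2%) in 7 genes were called in some comparison, close to the 12.9% of all. For swap1-1 over wild type in red light 10 (9.43%) in 5 genes were called, all higher, with a median of 0.89, beside 5.73% of all annotated introns of this length. Most of these 10 lay in the single gene DDB1A, so the share and the median rest largely on it. DDB1A, the adaptor of the ubiquitin ligases that COP1 and DET1 work with, held 7 of the 14. In the authors' deposited tables its intron 6 was at -0.74 for red light in the wild type, 0.83 for red light in swap1-1, and 1.41 and 1.49 for swap1-1 and the triple mutant over wild type in red light. COP1, the ubiquitin ligase that degrades light-promoting factors in darkness, had intron 7 of 290 bases at 0.81 for swap1-1 in red light (authors' deposited table). PIL6, the growth-promoting factor also known as PIF5, had intron 1 at -0.67 in darkness and 0.63 in red light for swap1-1 over wild type. Chlorophyll and bilin synthesis, with 47 introns in 27 genes, had 10 called members (21.3%, beside 12.9% of all), each in a different gene. CHLM, the methyltransferase of magnesium protoporphyrin, had intron 2 at 0.59 and 0.63 for red light in wild type and swap1-1 (authors' deposited tables). The lists were chosen with earlier results of these data known.

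The largest changes lay outside these lists. For red light in the wild type, AT2G33640, a DHHC-type zinc finger gene, had -3.99 for an intron of 120 bases, and for swap1-1 and the triple mutant over wild type in red light the same intron had 3.99 and 4.08 (authors' deposited tables). These values share the wild-type libraries in red light and are not separate observations. The intron was not called for light in swap1-1 or for either mutant in darkness. At the other end, the 3 highest values for red light in the wild type at an FDR of at most 0.01 were 4.45 in AT2G25169, 4.24 in AT1G23935 and 3.78 in intron 1 of THI1, a thiazole synthase of thiamine synthesis (authors' deposited table). In swap1-1 over wild type in darkness the highest value, 4.40, was that of intron 8 of FAR4, a fatty acyl reductase (authors' deposited table). Over swap1-1sfps-2 in red light the highest at that FDR was 4.38, in intron 2 of the strictosidine synthase-like gene SSL2 (authors' deposited table). CYP76C3, a cytochrome P450 gene, had intron 3 at 2.91 and 3.26 in red light for the triple mutant over swap1-1sfps-2 and over swap1-1rrc1-3 in the authors' deposited tables, and at 2.88 over sfps-2rrc1-3.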

How the data were processed

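RNA from 36 libraries in 12 groups of 3 was sequenced on a NovaSeq 6000 with reads of 150 bp. FastQC, STAR, HTSeq, DESeq2 and the build TAIR10 are named in the submitters' processing notes, and the design text names ASpli 2.0. For the other tools no version is given in the sources used here. The 12 splicing tables deposited by the authors hold called regions only. Per the file headers each bin carries its log2 fold change with an FDR, a p-value adjusted by the authors, and 116 members also had a junction call, whose change the authors give as a difference of fractions without sign. The 2 expression tables used (red light over darkness in wild type and swap1-1) hold the authors' DESeq2 log2 fold changes of called transcripts, and the 16 gene ontology tables were not used.

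The headers write the contrast as first minus second group. The direction was taken from the values as second over first. All 14 antenna transcripts were higher in red light in the expression tables read so, and exon bins found in some isoforms only moved with their isoform in 68 of 79 cases in the wild type and 82 of 93 in swap1-1. In 16 members called in all 4 comparisons of wild type and swap1-1 the fold changes close to a median of 0.0009 log2 when the tables share 1 direction, against 0.488 for the next best choice of signs. That ties the 4 tables to each other, not to a direction. No such check covers the 8 tables with the triple mutant. Earlier work on these data found 1 minor SWAP1 transcript that goes against this direction.

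Introns were matched by exact ends to RefSeq TAIR10.1, whose chromosomes 1 to 5 have the TAIR10 lengths. The background counts called introns among all 136443 annotated ones, since introns tested without a call are not listed. Python 3.11.15, pandas 2.3.3 and numpy 2.4.6 were used. No test of differences was run, as there are no values per library. Per comparison the 3 highest and 3 lowest introns at an FDR of at most 0.01 could be named, with up to 10 members called in the largest number of comparisons and up to 5 per gene list. Further introns of the lists, of AT1G15470 and the 3′ ends of introns lower in the mutants were chosen after their values were seen. The members and lists were chosen with earlier results of these data known. Called members under the named fold numbered between 0 and 54 per comparison and were kept.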

Additional observations from a re-analysis of the deposited data

How the results depend on the processing

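No value was available for a single library, so leaving out each library in turn was not run. No paired analysis was possible because the tables hold no values per library. Of 151 alternative values 134 stayed within the limits set, 17 moved and 0 reversed. A stricter FDR of 0.01 left 4.00% of the 6974 members called for light in the wild type, where the authors' threshold called 6.58%, and 6.67% in swap1-1, where it called 10.1%. It gave 95.6% higher in swap1-1 and 93.9% in the triple mutant over wild type in red light, and 100% of only 2 introns over swap1-1sfps-2 in darkness. Median log2 fold changes over wild type under this FDR were 0.76 (swap1-1, darkness), 0.78 (swap1-1, red light) and 0.78 (triple mutant, darkness). With 1 intron per locus the medians in red light were 0.78 for swap1-1 and 0.79 for the triple mutant. Requiring a log2 fold change of 1 or more in size gave 93.6% higher in swap1-1 and 91.8% in the triple mutant over wild type in red light, 59.0% for light in swap1-1, and 71.4% and 76.0% over sfps-2rrc1-3 in darkness and red light. From 120 to under 280 bases, 21.7% were higher for light in the wild type. Among loci with a called region 65.7% of annotated introns ended in CAG. All 36 values from bins with annotated ends stayed within the limits.

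The depth of each library and the reads in each bin are unknown, so an intron that was not called is not shown to be unchanged.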

Other observations

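Called introns and exons of 4 genes within a short stretch of chromosome 1 stood out among the few calls of the triple mutant over double mutants, and were picked after their values were seen. AT1G15410, AT1G15440 (PWP2), AT1G15460 and AT1G15470 lie between positions 5298387 and 5317469 of TAIR10. In the authors' deposited tables AT1G15410 had 2 introns at 1.02 and 1.35 over swap1-1sfps-2 in red light, and PWP2 had 4 introns between 1.67 and 2.21 over swap1-1sfps-2 in darkness. AT1G15460 had 10 exon bins between 2.93 and 3.35 over sfps-2rrc1-3 in red light, and AT1G15470 had 6 introns between 1.25 and 1.52 over swap1-1rrc1-3 in darkness (authors' deposited tables).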
